A study of Mus musculus with 4 samples.

Results

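Transforming growth factor beta (TGF-beta) signalling was described here through 10 genes: the ligand Tgfb1, the receptors Tgfbr1 and Tgfbr2, the signal transducers Smad1, Smad2, Smad3 and Smad4, the inhibitory Smad7, and the nuclear repressors Ski and Skil. Members were all probe sets that the platform annotation assigns to exactly 1 of these gene symbols, which gave 25 of the 45101 probe sets on the array and 10 of its 18193 genes. The 4 groups had 1 Affymetrix array each. Germinal centre (GC) B cells, sorted as B220+PNA+Fas+, and naive B cells, sorted as B220+PNA-Fas-, were taken from peripheral lymph nodes (pLN) of mice given TNP-KLH with incomplete Freund's adjuvant, and both populations also from Peyer's patches (PP), the follicles of the gut wall, of mice that received no treatment. All mice were adult C57BL6/J wild type animals kept free of specific pathogens, and each array held RNA from a pool of a few mice, so variation between mice was not measured.

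TGF-beta is released in a latent form. Once activated it binds TGFBR2, a kinase that joins and phosphorylates TGFBR1, which in turn phosphorylates SMAD2 and SMAD3. These pair with SMAD4 and act on genes in the nucleus, while SMAD7 blocks the receptor and SKI and SKIL hold SMAD target genes silent. SMAD1 chiefly serves the related bone morphogenetic protein (BMP) receptors. In B cells TGF-beta is known for restraining growth and for directing class switching to IgA, the antibody of the gut.

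The promoters of the ligand, both receptors and Smad3 are shown because their transcripts were called different between the cell types and the 2 receptors went in opposite directions. Other members were also called, Smad7 and Ski among them, and their promoters are not shown. Each line gives the 250 bases before the annotated start, 5′ to 3′ on the gene's strand, from RefSeq (GRCm38.p6). Capitals mark CAGAC, the core of the SMAD binding element, and GGGCGG, the GC box, each on either strand (GTCTG and CCGCCC). The motifs do not overlap in these windows.
Tgfb1, chr7:25686752-25687001, plus strand: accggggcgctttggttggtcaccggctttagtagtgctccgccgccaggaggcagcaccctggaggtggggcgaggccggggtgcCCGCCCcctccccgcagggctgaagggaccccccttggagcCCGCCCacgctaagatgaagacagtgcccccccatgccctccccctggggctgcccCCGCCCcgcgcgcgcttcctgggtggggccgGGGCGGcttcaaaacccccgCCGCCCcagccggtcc
Tgfbr1, chr4:47352972-47353221, plus strand: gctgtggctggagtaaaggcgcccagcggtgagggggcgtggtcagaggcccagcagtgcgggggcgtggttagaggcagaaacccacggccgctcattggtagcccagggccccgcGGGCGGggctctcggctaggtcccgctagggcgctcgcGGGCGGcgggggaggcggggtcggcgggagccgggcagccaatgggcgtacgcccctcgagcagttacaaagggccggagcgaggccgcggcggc
Tgfbr2, chr9:116175364-116175613, minus strand: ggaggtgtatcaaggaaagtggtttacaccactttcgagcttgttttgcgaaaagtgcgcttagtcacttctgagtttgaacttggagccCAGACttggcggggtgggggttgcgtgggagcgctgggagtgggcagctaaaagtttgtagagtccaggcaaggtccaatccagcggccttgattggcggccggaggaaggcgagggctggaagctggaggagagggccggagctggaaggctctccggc
Smad3, chr9:63757995-63758244, minus strand: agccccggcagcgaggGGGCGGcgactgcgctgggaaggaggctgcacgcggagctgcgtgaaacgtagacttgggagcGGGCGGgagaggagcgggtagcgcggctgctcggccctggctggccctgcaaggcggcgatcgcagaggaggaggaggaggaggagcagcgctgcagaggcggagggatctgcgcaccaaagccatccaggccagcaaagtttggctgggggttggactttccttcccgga
Tgfbr2 held 1 CAGAC and no GGGCGG. Tgfbr1, Smad3 and Tgfb1 held no CAGAC in the windows shown, and 2, 2 and 5 copies of GGGCGG. A second annotated start of Tgfbr1 held 1 CAGAC and no GGGCGG. Over all 32851 promoter windows of this length, 42.2% held CAGAC and 32.7% held GGGCGG. The windows shown were 75.2% (Tgfb1), 74.8% (Tgfbr1), 58.4% (Tgfbr2) and 69.2% (Smad3) G or C, against a median of 52.4% over all windows. A match is a description of the letters only.

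Signals were scaled so that each array had a trimmed mean of 500. A signal counted as detected above the 90th percentile of 74 probe sets of genes of other tissues, which was 172 (pLN) and 263 (PP) for the GC arrays and 183 (pLN) and 395 (PP) for the naive arrays. Without Apoa1, Gh and Mbp, which were bright among these genes, the levels were 53.4 and 73.4 for GC and 77.9 and 146 for naive cells. Some signals treated below as undetected would pass these lower levels. Among them were Tgfbr1 on naive pLN (155) and, on naive PP, 1423389_at of Smad7 (205), 1422487_at of Smad4 (375) and 1459843_s_at of Smad1 (336). Detection statements and bounds below use the higher levels. The sort marker Fas read 4266 in GC and 515 in naive cells of pLN, and 4980 in GC and 403 in naive cells of PP. All 5 measured B cell markers were detected on 3 arrays and 4 of them on naive PP. Of 5 GC B cell markers 5 were detected on each GC array, against 3 on naive pLN and 2 on naive PP, and of 4 naive B cell markers 4 on GC pLN against 4 on naive pLN, and 3 on GC PP against 4 on naive PP. The naive arrays carried a 3′ bias. The 3′ over 5′ ratio of the Gapdh control was 1.48 on GC pLN against 18.7 on naive pLN, and 1.67 on GC PP against 96.4 on naive PP. Along the Gapdh and Actb transcripts the controls gave GC minus naive log2 folds of -0.86 to 2.87 in pLN and -2.32 to 4.22 in PP, low at the 3′ end and high at the 5′ end. The median of 9 spike-in probe sets was 4263 on GC pLN against 9772 on naive pLN, and 4037 on GC PP against 19789 on naive PP.

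The first comparison asked how the pathway's transcripts differed between GC and naive B cells. Tgfbr1 and Smad7 were higher in GC cells of both tissues, and Tgfb1, Tgfbr2, Smad3 and Ski were lower. Smad4 depended on the probe set, and Smad1, Smad2 and Skil did not pass the test. Of the 25 probe sets, 14 were detected on both arrays of a cell type and tested, at least 1 for each gene. With limma (adjusted p under 0.05 over 16040 probe sets, tissue as a block), 5 were called higher, 5 lower and 4 neither. All 5 called higher lay below the level on 1 or both naive arrays and so entered through the GC arrays, and 1429192_at of Ski, called lower, entered through the naive arrays. With detection required on all 4 arrays 7 members were tested, and the 1 called higher was Smad2. Over all probe sets tested, 36.0% were called higher and 20.5% lower (56.5% either way), and of the tested members 35.7% and 35.7%. Taken tissue by tissue with no test, 5 of 16 members detected on the brighter array were higher in GC cells of pLN by 2-fold or more and 5 lower, beside 29.8% and 18.8% of all probe sets. In PP 7 of 14 were higher and 5 lower, beside 41.2% and 22.5%. The median log2 fold was 0.09 over the members and 0.36 over all. The only replication was the pair of tissues, which left 1 residual degree of freedom. The prior of limma came out infinite, so each probe set took the spread usual at its intensity and its own disagreement between tissues did not widen its SE. Folds and SE below are on the log2(signal + 20.4) scale, which understates changes of dim probe sets.

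**Figure D1:**
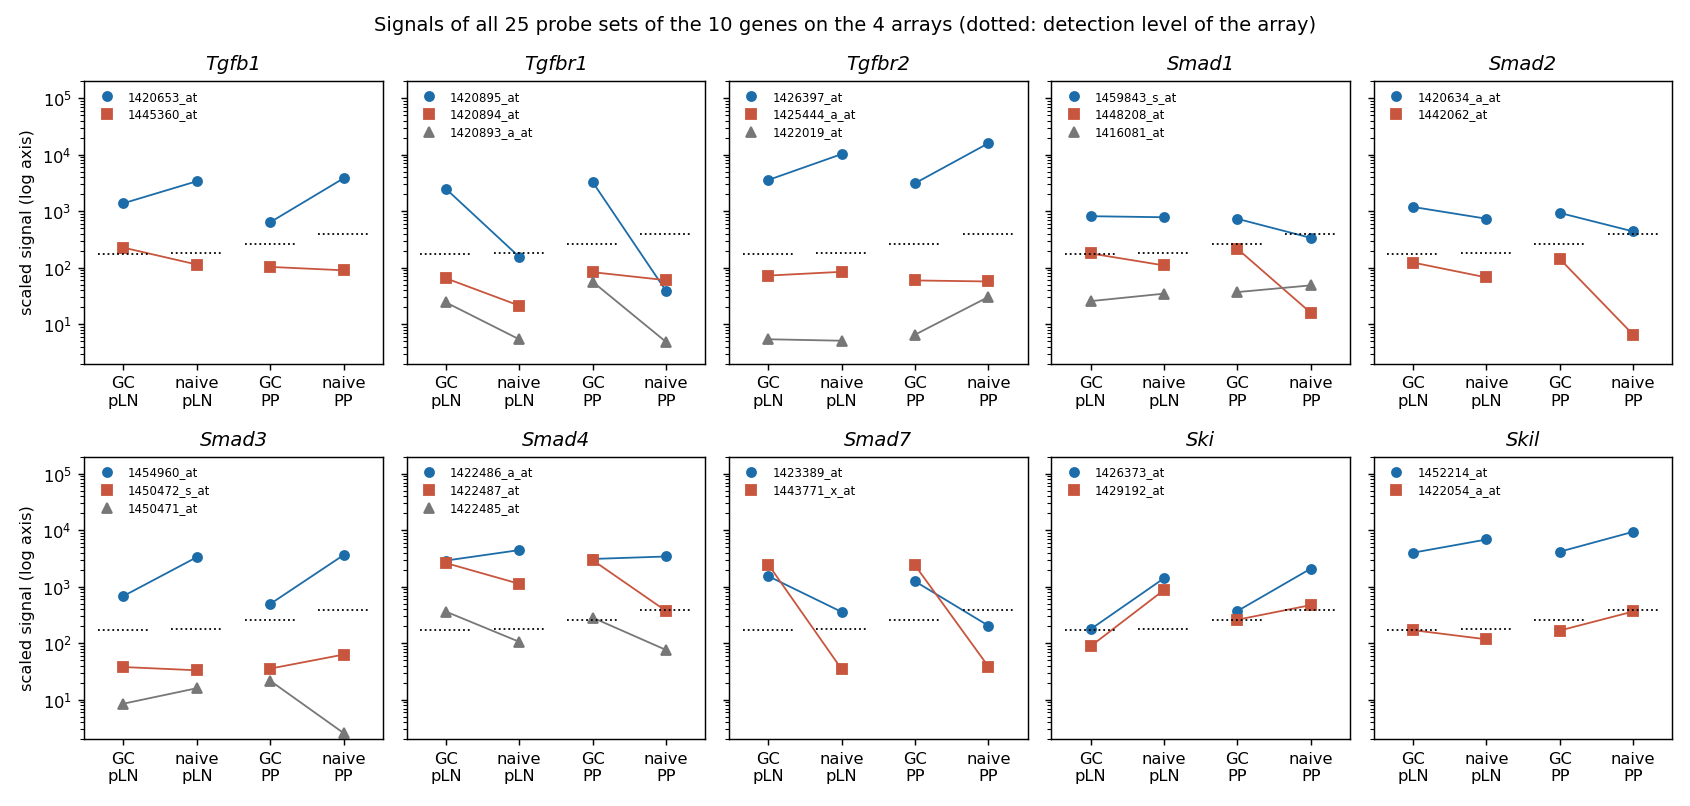
Scaled signal (log axis) of every probe set of the 10 genes on the GC and naive arrays of pLN and PP, 1 array per point, lines joining GC and naive cells of a tissue, and dotted marks at the detection level of each array. For Tgfbr1, Tgfbr2 and Smad3 only 1 of 3 probe sets was detected on any array, and 9 of the 25 probe sets were detected on none.

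The ligand Tgfb1 (probe set 1420653_at) read 1379 in GC and 3378 in naive cells of pLN, and 636 in GC and 3801 in naive cells of PP. Both GC arrays lay below both naive arrays, and GC PP was the lowest. It was lower in GC cells by a log2 fold of -1.91 ± 0.42 (SE, limma adjusted p = 2.9e-05). Without the GC PP array the fold was -1.37 and was not called (limma adjusted p = 0.144). The second probe set, 1445360_at, read 226 in GC and 113 in naive cells of pLN, and 103 in GC and 89.8 in naive cells of PP. It was detected only on GC pLN and was not tested.

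Other cells of these tissues also make TGF-beta. Of 6 T cell markers 0 were detected on GC pLN against 1 on naive pLN, and 1 on GC PP against 0 on naive PP. Their signals summed in GC and naive cells to 375 and 860 (pLN) and to 837 and 574 (PP). None of the 4 platelet markers measured was detected on any array, and they summed in GC and naive cells to 111 and 229 (pLN) and to 105 and 311 (PP). Of 7 macrophage markers 2 were detected on GC pLN, naive pLN and GC PP and 0 on naive PP, and the 7 summed in GC and naive cells to 780 and 878 (pLN) and to 900 and 829 (PP). Of 5 gut epithelial markers 1 was detected on GC pLN and 1 on naive pLN, and 2 on GC PP against 3 on naive PP. The epithelial list summed in GC and naive cells to 474 and 1169 (pLN) and to 1363 and 2397 (PP). Of 5 stromal markers only Vim, which lymphocytes also express, was detected, and the list summed in GC and naive cells to 8589 and 12398 (pLN) and to 5568 and 10358 (PP). No defining marker read 0. The part of these cells in the Tgfb1 values was not tested, and in sorted pools fewer cells of a type and less RNA per cell cannot be told apart.

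The signalling receptor Tgfbr1 (1420895_at) read 2483 in GC and 155 in naive cells of pLN, and 3277 in GC and 39.0 in naive cells of PP. It was detected on both GC arrays and on neither naive array. It entered the test through the GC arrays alone, so its fold is a bound. With the naive signals taken at the detection level, the GC signal was higher by at least 10.6-fold over both tissues, and by at least 13.6-fold in pLN and 8.29-fold in PP. At that level the log2 fold was 3.30 (limma adjusted p = 2.0e-16), and with the signals as measured it was 4.81 ± 0.44 (limma adjusted p = 5.0e-25). The 5′ control of Gapdh was itself 7.45-fold higher on the GC array in pLN and, as its naive PP signal of 328 was also under the level, at least 16.4-fold in PP. The other probe sets of Tgfbr1, 1420894_at and 1420893_a_at, read at most 83.2 on any array and were not detected.

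The ligand-binding receptor Tgfbr2 (1426397_at) showed the opposite direction. It read 3555 in GC and 10195 in naive cells of pLN, and 3111 in GC and 15875 in naive cells of PP, with no overlap between the cell types. Its log2 fold was -1.93 ± 0.47 (limma adjusted p = 1.5e-04), a 3.83-fold lower signal in GC cells. Without GC pLN (-2.02, limma adjusted p = 0.061) or without GC PP (-1.83, limma adjusted p = 0.0969) it was not called, and after cyclic loess the fold was -1.20 and called. The other probe sets, 1425444_a_at and 1422019_at, were not detected on any array.

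Of Smad1, Smad2 and Smad3, the receptor-activated SMADs among the 10 genes, only Smad3 was called. Its probe set 1454960_at read 688 in GC and 3347 in naive cells of pLN, and 497 in GC and 3639 in naive cells of PP. GC cells were lower by a log2 fold of -2.54 ± 0.42 (limma adjusted p = 1.8e-08), or 5.97-fold, and the call held without any 1 array. The remaining Smad3 probe sets, 1450472_s_at and 1450471_at, were not detected on any array.

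Smad2 is the other substrate of TGFBR1. Its probe set 1420634_a_at read 1184 in GC and 733 in naive cells of pLN, and 929 in GC and 437 in naive cells of PP. The log2 fold of 0.86 ± 0.43 did not pass (limma adjusted p = 0.0735), although it did without naive pLN (1.22, limma adjusted p = 0.0079), with detection required on all 4 arrays (limma adjusted p = 0.0381) and with dim signals set to the level (limma adjusted p = 0.0463). Its second probe set, 1442062_at, was not detected on any array.

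Smad1, of the BMP branch, read 813 in GC and 779 in naive cells of pLN, and 730 in GC and 336 in naive cells of PP by 1459843_s_at, which was not detected on naive PP. Its log2 fold of 0.57 ± 0.44 was not called (limma adjusted p = 0.262). It was called without naive pLN (1.15, limma adjusted p = 0.0088) and was -0.016 without naive PP. The probe set 1448208_at was detected on GC pLN alone, and 1416081_at on no array.

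Smad4, the partner shared by both branches, gave different answers by probe set. The brightest, 1422486_a_at, read 2913 in GC and 4463 in naive cells of pLN, and 3111 in GC and 3439 in naive cells of PP, and its log2 fold of -0.38 ± 0.44 was not called (limma adjusted p = 0.469). Without naive PP this probe set was called lower (-0.56, limma adjusted p = 0.0275). By 1422487_at the signals were 2634 in GC and 1131 in naive cells of pLN, and 2964 in GC and 375 in naive cells of PP, just under the level on the last array. This probe set was called higher, at 2.06 ± 0.42 (limma adjusted p = 5.6e-06), though not without GC PP (1.98, limma adjusted p = 0.0674), and was 1.29 and called without naive PP. The third, 1422485_at, read 365 in GC and 107 in naive cells of pLN, and 285 in GC and 76.6 in naive cells of PP. It was called at 1.63 ± 0.51 (limma adjusted p = 0.0039) but lay at 0.24 with dim signals set to the level (limma adjusted p = 0.734). It was also not called without GC pLN (1.46, limma adjusted p = 0.17) or without GC PP (1.79, limma adjusted p = 0.0939), nor after quantile normalization (1.16) or cyclic loess (1.03). No single direction is therefore given for Smad4. The 3 probe sets spanned 2.44 on the log2 scale, against a median span of 1.57 over the 3415 genes with several tested probe sets, of which 11.8% had probe sets called in both directions.

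The inhibitory Smad7 was higher in GC cells by both probe sets. By 1423389_at it read 1544 in GC and 360 in naive cells of pLN, and 1252 in GC and 205 in naive cells of PP, and only naive PP was below its level. The log2 fold was 2.27 ± 0.44 (limma adjusted p = 1.4e-06), or 1.83 with that signal set to the level. By 1443771_x_at the signals were 2481 in GC and 34.9 in naive cells of pLN, and 2402 in GC and 38.9 in naive cells of PP, at least 9.08-fold higher over both tissues. Neither naive signal was detected, and the log2 fold was 3.08 with both at the level (limma adjusted p = 1.7e-14) and 5.42 ± 0.46 as measured (limma adjusted p = 5.5e-29). The x_at suffix marks a probe set whose probes can match more than 1 transcript. Both calls held without any 1 array.

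Ski, a repressor of SMAD target genes, was lower in GC cells by both probe sets. By 1426373_at it read 179 in GC and 1421 in naive cells of pLN, and 373 in GC and 2099 in naive cells of PP, a log2 fold of -2.64 ± 0.43 (limma adjusted p = 1.2e-08) that was called without any 1 array. By 1429192_at it read 89.3 in GC and 881 in naive cells of pLN, and 262 in GC and 475 in naive cells of PP. Neither GC array was above its level for this probe set, so it was at least 3.04-fold lower in GC cells (fitted log2 fold -1.92 ± 0.47, limma adjusted p = 1.6e-04). It was not called without GC pLN (-1.24, limma adjusted p = 0.223) or without naive pLN (-1.49, limma adjusted p = 0.0525).

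Its relative Skil (1452214_at) read 4018 in GC and 6876 in naive cells of pLN, and 4183 in GC and 9409 in naive cells of PP. Both GC arrays were lower, but the log2 fold of -0.97 ± 0.46 was not called (limma adjusted p = 0.0609). It passed without naive pLN (-1.19, limma adjusted p = 4.0e-04), without naive PP (-0.74, limma adjusted p = 0.0041), with no tissue block (limma adjusted p = 0.041) and with median scaling (-1.11, limma adjusted p = 0.0266). The second probe set, 1422054_a_at, was not detected on any array. It read 171 in GC and 118 in naive cells of pLN, and 169 in GC and 366 in naive cells of PP. These signals went opposite ways in the 2 tissues and would pass the lower levels set without Apoa1, Gh and Mbp.

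**Figure D2:**
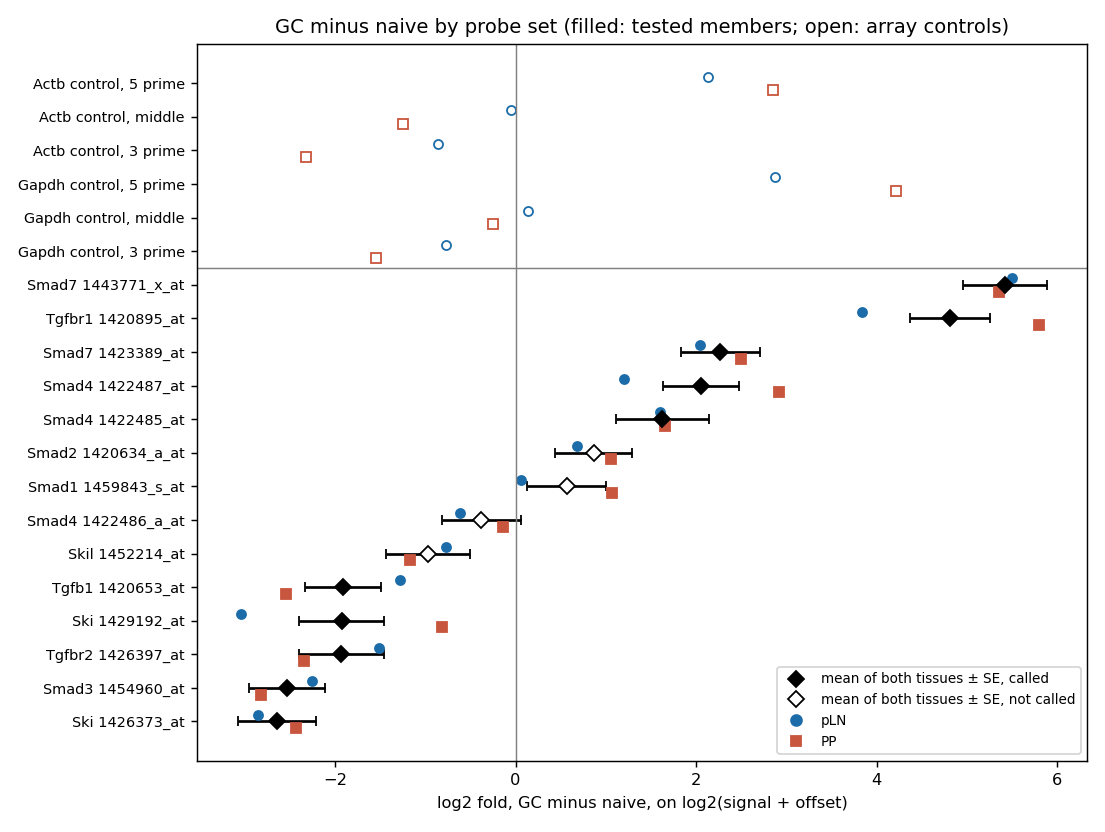
GC minus naive log2 fold of the 14 tested probe sets, with circles for pLN, squares for PP and diamonds for their mean ± SE (limma, filled where called), and open symbols for the Gapdh and Actb array controls along their transcripts. The 5′ controls reached 2.87 in pLN and 4.22 in PP, and Tgfbr1 and 1443771_x_at of Smad7, undetected on both naive arrays, lay above these values as measured.

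The fitted folds were set beside the range of the control probe sets within each tissue. Tgfbr1 (3.83 in pLN and 5.79 in PP) and 1443771_x_at of Smad7 (5.50 and 5.35) were above the highest control in both tissues, but these folds rest on undetected naive signals, and their bounds in PP (8.29-fold and 6.07-fold) were below the 16.4-fold bound of that control. Tgfb1 (-1.28 and -2.54), Tgfbr2 (-1.51 and -2.34), Smad3 (-2.25 and -2.82) and 1426373_at of Ski (-2.86 and -2.43) were below the lowest control in both. In PP, Tgfbr2, Ski and Tgfb1 were below it by less than their residual SD. The other Ski probe set, 1429192_at, was below the controls in pLN (-3.04) and within their range in PP (-0.81). The folds of 1423389_at of Smad7 (2.04 and 2.50) and of both called Smad4 probe sets lay within the control range. The part of the 3′ bias in these values was not tested. The median fold of all tested probe sets was 0.36 with the scaling used, and 0.23 with median scaling, 0.12 with quantile normalization and 0.20 after cyclic loess. Relative to that median all 10 called members kept their sign under the 4 scalings.

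Over the 4 arrays the levels of Tgfb1, Tgfbr1, Tgfbr2, Smad3, Smad7, Ski, Smad2 and Skil were ordered by cell type. How many of all tested probe sets were ordered so was not counted, and 56.5% of them were called different between the cell types. The order is therefore a description and is not read as particular to these genes. For Tgfb1, Tgfbr2 and Smad3 naive PP was highest, followed by naive pLN, GC pLN and GC PP. For Tgfbr1 GC PP was followed by GC pLN, and for Smad7 (1423389_at) GC pLN by GC PP, and their naive arrays came last with no order between them, since Tgfbr1 was detected on neither and Smad7 on naive PP was not. The residual SD of the fit was 0.42 for Tgfb1 and Smad3. With 1 array a group no gap between neighbours was tested, and a gap over this SD does not show that they differ. Neighbours in these orders could not be told apart where they differed by less than the residual SD. This was so for the naive arrays of Tgfb1 (0.17), Smad3 (0.12) and Skil (0.45), and for the GC arrays of Tgfbr1 (0.40), Tgfbr2 (0.19), Smad7 (0.30), Smad2 (0.34) and Skil (0.06). It was also so for all neighbours of the brightest Smad4 probe set, for GC PP and naive pLN of Smad2 (0.33), and for Smad1 among GC pLN, naive pLN and GC PP (0.06 and 0.09). For Ski (1426373_at) and Skil the order was naive PP, naive pLN, GC PP and GC pLN. By 1429192_at of Ski the naive arrays came the other way, at 881 in pLN and 475 in PP, both detected. The GC arrays of 1429192_at gave no order, since neither was above its level. No single order of the naive arrays is therefore given for Ski.

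The next comparison took PP against pLN within a cell type. Only the mice behind the pLN arrays had been immunised, so tissue and immunisation cannot be told apart, and with 1 array a group there was no test. In GC cells, whose arrays had similar 3′ over 5′ ratios, Tgfb1 was lower in PP than in pLN (636 against 1379, 2.17-fold). Its second probe set read 103 in PP and 226 in pLN, and only the pLN signal was detected. Ski by 1426373_at read 373 in PP and 179 in pLN, a ratio of 2.09 and a log2 fold of 0.98 on the scale with the offset. By 1429192_at neither GC signal was above its level, so that probe set gives no direction. Tgfbr1 read 3277 in PP and 2483 in pLN, and Smad3 read 497 in PP and 688 in pLN. Counting members detected on the brighter GC array, 1 of 14 was lower in PP by 1 or more on the log2(signal + 20.4) scale and 0 were higher. Over all probe sets so detected, 1.47% were lower and 2.67% higher. The Gapdh and Actb controls differed by -0.25 to 0.04 between the GC arrays.

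In naive cells, 2 of 11 detected members were lower in PP than in pLN by that measure and 0 were higher, against 18.7% and 7.10% of all probe sets. These were Smad1, at 336 in PP and 779 in pLN, and 1422487_at of Smad4, at 375 in PP and 1131 in pLN. Neither signal was above the level on naive PP. The controls differed by -1.48 to 1.48 between the naive arrays, and with naive PP at the level Smad1 was at least 1.97-fold lower and this Smad4 probe set at least 2.86-fold lower, so that Smad1 would leave the count. Tgfbr2 read 15875 in PP and 10195 in pLN (log2 fold 0.64), and Tgfb1 3801 in PP and 3378 in pLN (0.17).

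**Figure D3:**
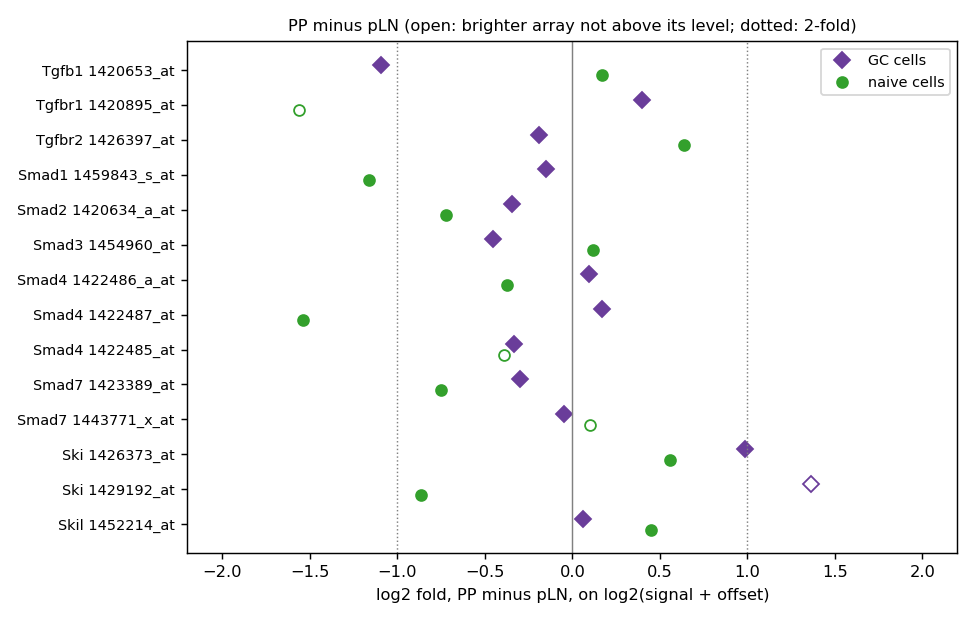
PP minus pLN log2 fold of the 14 tested probe sets in GC cells (diamonds) and naive cells (circles), 1 array per group, open where the brighter array was not above its level, with dotted lines at 2-fold. Tgfb1 lay at -1.09 in GC cells and 0.17 in naive cells.

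Other genes of TGF-beta, activin and BMP signalling were then read from the same fit. Of 66 genes listed, 64 had probe sets, 163 in all, and 54 probe sets of 29 genes were tested. Of these 19 were called higher, 8 lower and 27 neither, shares of 35.2% and 14.8% beside 36.0% and 20.5% over all probe sets, with a median log2 fold of 0.61 against 0.36. Of 34 probe sets for other ligands and activators only 4 were tested. Itgav, an integrin chain that helps release latent TGF-beta, was called higher by 1452784_at (2.81 ± 0.42, limma adjusted p = 4.1e-10). This probe set was below the level on naive PP and entered through the GC arrays. With that signal at the level its log2 fold was 2.67. The other Itgav probe sets were not detected on any array. Nrros, which tethers latent TGF-beta on cells in which it is made, was called lower, at 471 in GC and 2657 in naive cells of pLN, and 385 in GC and 2099 in naive cells of PP (-2.42 ± 0.42, limma adjusted p = 1.0e-07).

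Of 12 further receptor genes 2 were tested. By 1437382_at, Acvr2a, a type II receptor for activins, read 1730 in GC and 12.8 in naive cells of pLN. In PP it read 2201 in GC and 20.0 in naive cells. It was detected on neither naive array and entered through the GC arrays, so its fold is a bound, at least 7.26-fold higher. With the naive signals at the level the log2 fold was 2.76 (limma adjusted p = 6.7e-12). As measured it was 5.75 ± 0.49 (limma adjusted p = 1.7e-29). A second Acvr2a probe set, 1451004_at, was not detected on any array and pointed the other way. It read 13.7 in GC and 85.6 in naive cells of pLN, and 42.1 in GC and 164 in naive cells of PP. Both naive signals would pass the lower levels set without Apoa1, Gh and Mbp. Acvr1b, the activin type I receptor, was not called (0.63 ± 0.42, limma adjusted p = 0.19). Of the other SMADs, Smad5, a BMP transducer, was called higher by 1 of 3 probe sets (1451873_a_at, 2.36 ± 0.47, limma adjusted p = 3.2e-06), or 1.17 with its dim signal set to the level, and not without GC PP (2.29, limma adjusted p = 0.061). Smad6 and Smad9 were not detected on any array.

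Among 21 regulators, 14 of 39 tested probe sets were called higher (35.9%) and 5 lower (12.8%), beside 36.0% and 20.5% over all probe sets. Fkbp1a, which binds and silences the type I receptor, was higher by 3 of its 4 tested probe sets (largest by 1448184_at, 2.75 ± 0.42, limma adjusted p = 1.1e-09). The naive PP signal of 1448184_at was below the level, and the fold was 2.72 with it at the level. Nedd4l, a ubiquitin ligase for activated SMADs, was at least 3.14-fold lower by 1441305_at, which was detected on neither GC array. As measured its log2 fold was -3.01 ± 0.49 (limma adjusted p = 1.3e-08). By 1423269_a_at, detected on all 4 arrays, Nedd4l was also called lower (-2.34 ± 0.42, limma adjusted p = 2.4e-07). The latter was not among the probe sets followed with an array left out. A further Nedd4l probe set, 1457374_at, was detected on GC pLN alone, was not tested and pointed the other way. It read 200 in GC and 94.7 in naive cells of pLN, and 203 in GC and 28.3 in naive cells of PP. Trim33, another ubiquitin ligase of the pathway, was at least 1.82-fold higher by 1 of 2 tested probe sets, and was not called with dim signals at the level (0.81, limma adjusted p = 0.133), without GC pLN (2.14) or without GC PP (2.01). The deubiquitinases Usp9x and Usp15 and the coactivator Crebbp each had probe sets called both ways. Usp9x lay at -1.62 by 1450039_at and at 2.90 by 1428193_at, or 1.88 with the undetected naive PP signal of the second at the level. Usp15 lay at -1.75 by 1442307_at and was at least 3.29-fold higher by 1454036_a_at, which was detected on neither naive array. Crebbp lay at -1.82 by 1434633_at and 0.95 by 1436983_at. The lower calls of all 3 were lost without GC PP, at -1.53 for Usp9x, -1.35 for Usp15 and -1.60 for Crebbp, and that of Usp9x also without GC pLN (-1.71).

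Of 12 genes known to respond to SMADs, 11 had probe sets and 5 were tested. Id2 (1.69 ± 0.45, limma adjusted p = 5.5e-04) and Id3 (1.04 ± 0.42, limma adjusted p = 0.0271), inhibitors of E protein transcription factors, were called higher. The repressor gene Bhlhe40 (-1.02 ± 0.42, limma adjusted p = 0.0296) and 1 of 2 tested probe sets of Pmepa1, a feedback inhibitor of the pathway (-1.06 ± 0.48, limma adjusted p = 0.0498), were called lower. Of these 4, Id2 was below the level on naive PP (1.35 with that signal at the level). Pmepa1 by 1422705_at was below it on both GC arrays and entered through the naive arrays. The other tested Pmepa1 probe set, 1422706_at, was brighter, was detected on every array and was not called (0.06 ± 0.44, limma adjusted p = 0.919). Without GC PP none of these 4 was called, at 1.25, 1.55, -1.26 and -1.42 in the same order. Id3, Bhlhe40 and Pmepa1 were also not called without GC pLN (0.52, -0.78 and -0.70) or without naive PP (0.54, -0.58 and -0.61), nor with no filter or no tissue block, and Bhlhe40 also not with no intensity trend (limma adjusted p = 0.0532). Id3 also missed the threshold under the other scalings (0.76 to 0.90), and Pmepa1 with dim signals at the level (-0.78). Among the 16 called probe sets refitted with each array left out, which do not include 1436983_at of Crebbp, 7 were called in every such fit. A fit without 1 array has no tissue block and takes its spread from the 2 arrays of 1 cell type, from different tissues, so its p-values are less certain than the folds.

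**Figure D4:**
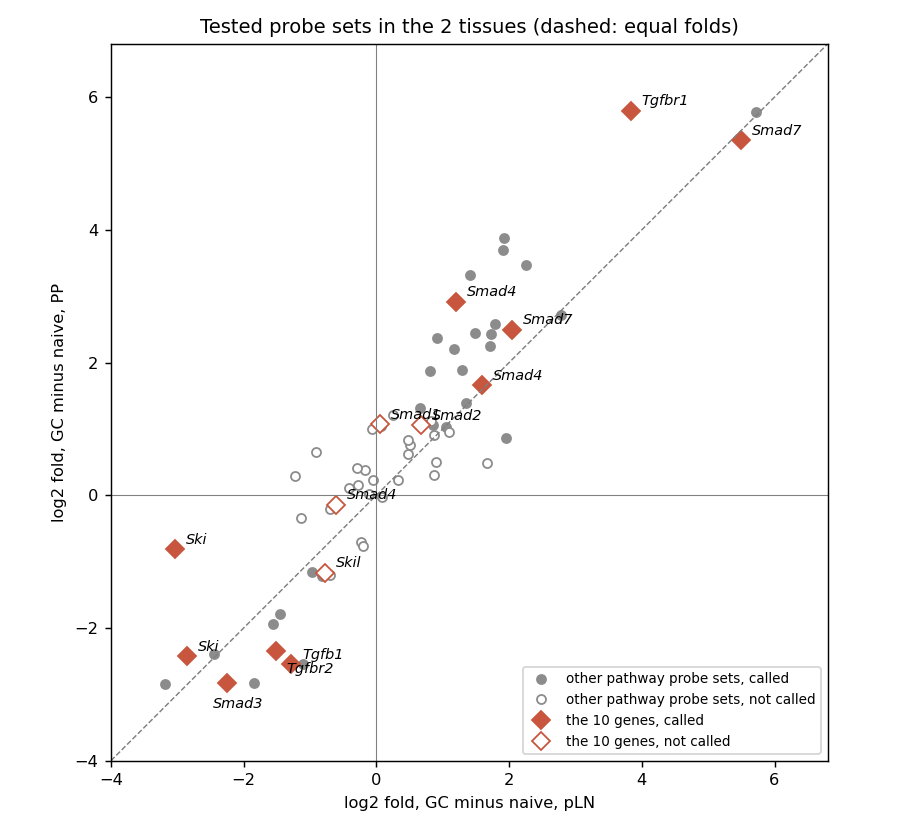
GC minus naive log2 fold in pLN (x axis) and PP (y axis) for the tested probe sets of the 10 genes (diamonds, labelled) and of the other pathway genes (circles), filled where called. Every tested probe set of the 10 genes had the same sign in both tissues, and Tgfbr1 lay at 3.83 in pLN and 5.79 in PP. The share of all tested probe sets with the same sign was not counted, so this is not read as particular to the 10 genes.

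Probe sets of other genes with the most similar profile were found by the Euclidean distance between mean-centred log2 signals over the 4 arrays. For Tgfbr1 these were Nol7 (0.04), Mtf2 (0.23) and Mcm4 (0.28) among 13069 probe sets. For Tgfbr2 they were Galt (0.04), Odr4 (0.05) and Rgl2 (0.06), and for Smad3 Shisa5 (0.08), Gm20559 (0.10) and Cyb561d2 (0.14), each among 8224. For Smad7 (1423389_at) they were Rab30 (0.08), Max (0.09) and Tmem256 (0.11) among 11199. With 4 arrays many probe sets share a profile, the dim naive signals of Tgfbr1 enter its distances, and the distances are a description.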

How the data were processed

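Signals of 45101 probe sets were read on 4 arrays, 1 per group. The software was GCOS, per the submitters' processing notes. Its version and settings were not given in the sources used here. Linear intensity values were deposited by the authors, already divided so that the median of an array is 1. Each array was rescaled to a 2% trimmed mean of 500, a background median of 20.4 was added and log2 taken. Of the probe sets, 34958 had 1 gene symbol, 932 several and 9211 none, and 0 columns were unused. Some listed genes are not reported here.

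GC cells were tested against naive cells in limma 3.58.1 (R 4.3.3; lmFit, eBayes with trend, tissue as a block, Benjamini-Hochberg over 16040 probe sets). Control probe sets were left out, and the procedure was tested on simulated data. The simulation had no 3′ bias and changed only probe sets detected on all 4 arrays. It therefore does not cover calls that rest on undetected signals. Probe sets of a gene were kept apart. P-values measure only the spread between these arrays. The number of arrays limits the precision. Alternatives changed the tissue block, the intensity trend, the filter, the offset, the scaling or the probe sets kept per gene, or left out an array, plus a background list without Apoa1, Gh and Mbp, added after seeing the data. Named genes were all members, up to 4 called genes per direction of each role list of other pathway genes, the 3 nearest profiles of 4 members, and Fas. Ptprc, the other sort marker, read 3356 and 3317 in GC and naive cells of pLN, and 2871 and 3835 in those of PP. Acvr1b, Smad6 and Smad9 were named after their values were seen. Members and lists were chosen with earlier results of these data known.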

Additional observations from a re-analysis of the deposited data

How the results depend on the processing

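Of the 14 tested probe sets of the 10 genes, 1 changed sign under an alternative: Smad1 lay at -0.016 without naive PP, and at up to 1.15 (called) over the other arrays left out. Smad3, both Smad7 probe sets, Tgfbr1 and 1426373_at of Ski were called under every alternative in which they were tested, with log2 folds of -2.76 to -2.31, 1.82 to 2.64, 3.08 to 5.54, 3.30 to 5.60 and -3.14 to -2.15. Calls among the 10 genes (5 higher, 5 lower) came to 8 higher with no filter on dim probe sets, 1 higher with detection on all 4 arrays, 2 higher with 1 probe set per gene, and 3 to 7 higher and 3 to 7 lower with an array left out. Among other pathway genes (19 higher, 8 lower) there were 17 lower with no filter, 6 higher with detection on all 4 arrays, 8 higher and 5 lower with 1 probe set per gene, and 31 higher and 16 lower with the smaller background list. Leaving out an array gave 5 to 28 higher and 3 to 12 lower. Over all probe sets (5780 higher, 3283 lower), detection on all 4 arrays gave 1482 higher, 1 probe set per gene 2253 higher and 2157 lower, and an array left out 2524 to 7348 higher and 772 to 4587 lower. Fits with an array left out had no tissue block, and their spread came from the 2 arrays of the cell type left whole, with the lone array assumed to vary alike. PP minus pLN counts in GC cells (0 higher, 1 lower) were 2 lower with median scaling and with quantile normalization, 2 higher and 2 lower after cyclic loess, 0 lower at 3-fold and 1 higher with the smaller list. In naive cells (0 higher, 2 lower) they were 5 lower with median scaling, 1 lower after cyclic loess, with dim signals at the level and with quantile normalization, 0 lower at 3-fold, and 1 higher and 4 lower with the smaller list. The cause of these changes was not tested, beyond the fewer or more probe sets that a filter leaves. No paired analysis was possible because the labels give no replicate numbers to pair by, apart from the pairing of GC and naive arrays by tissue, which is the block of the reported fit. Signals near background limit what can be read of 11 of the 25 probe sets, which were not tested.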
